A study of Rattus norvegicus with 6 samples.

Results

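The genes described here build and steer the vesicles that carry proteins between the endoplasmic reticulum (ER) and the Golgi. They were chosen by gene symbol: the subunits of the COPI coat (Copa, Copb1, Copb2, Copg1, Copg2, Copz1, Copz2 and Arcn1), the COPII coat with its GTPases Sar1a and Sar1b (the Sec13, Sec16, Sec23, Sec24 and Sec31 families), the Sec22 proteins, the p24 family (Tmed), the TRAPP complexes (Trappc) and the Golt1 proteins. The rule found 54 of 30367 probes, which stood for 45 of 15168 genes with a symbol. Another 25 symbols of the rule, 11 of them pseudogenes, were not matched to a probe and are not analysed here. They include the COPI gene Cope, and Sec16a, Sec23b, Sec24d, Sec22c, Tmed4 and Trappc12. The coats and complexes are therefore not covered in full. The symbols were listed with results of the same comparison already known, so the differences below describe these genes, and the threshold sorts them without serving as evidence about them.

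RNA came from primary Leydig cells of Sprague-Dawley rats, the testosterone-producing cells of the testis, cultured in 10% serum and 5% CO2 at 34 °C. Exosomes, small vesicles that primary rat Sertoli cells had released, were given to 3 samples at 5 µg/ml for 24 h. Another 3 samples were given none. Each sample was read on 1 one-colour Agilent array. The labels give neither the age of the rats nor a vehicle or a culture time for the untreated cells. They do not say whether replicates were separate animals or cultures, so the spread between replicates may be technical.

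COPII is the coat that buds vesicles from the ER at exit sites: Sar1 recruits Sec23 and Sec24, which bind cargo, and Sec13 and Sec31 form the outer cage. COPI is the coat of vesicles that bring escaped ER proteins and receptors back from the Golgi. The p24 proteins are transmembrane cargo receptors that cycle between both compartments, the TRAPP complexes tether vesicles and activate Rab GTPases, and Sec22 proteins belong to the fusion machinery. Leydig cells are rich in smooth ER, where much of steroid synthesis takes place.

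Testing required a signal well above background on 3 or more of the 6 arrays, which 50 of the 54 probes and 43 of the 45 genes reached. Sec31b and Tmed6 were dim and were not tested. Values are log2 signals relative to the 75th percentile of the array, so 0 stands for that percentile, and differences are exosome-treated minus untreated, with the standard error (SE) of the limma fit and 3 arrays in each group. A gene with several tested probes is represented by its brightest. Genes whose Benjamini-Hochberg adjusted p in limma was below 0.05 are called past the threshold.

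Among the 43 tested genes, 8 were higher past the threshold in exosome-treated cells: Golt1a, Sec16b, Trappc13, Copa, Sec24a, Tmed7, Copb2 and Trappc4. Another 5 were lower: Trappc14, Copz1, Trappc1, Trappc11 and Sec23a. The remaining 30 were not past it, with differences between −0.47 and 0.44. In the background of 10981 tested genes, 43.8% were past the threshold, 14.6% higher and 29.2% lower. Since the genes were proposed from this contrast, nothing is read from their share. The median difference of the 43 genes was 0.17, and that of all tested genes was −0.19. When the probes of a gene were averaged, the medians were 0.00 and −0.23.

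The balance of higher and lower calls depended on how the arrays were scaled. Quantile normalization gave 13 higher and 4 lower genes, with medians of 0.19 for the 43 genes and 0.01 for all genes. Centring each array on its median gave 15 higher and 3 lower genes, with medians of 0.41 and 0.04. In all genes the split was 1598 higher and 3209 lower with the 75th percentile, and 2214 higher and 1766 lower after quantile normalization. Across 5 scalings or background corrections 7 genes stayed past the threshold as higher (Copa, Copb2, Sec16b, Golt1a, Trappc13, Trappc4 and Tmed7) and 3 as lower (Copz1, Trappc1 and Trappc14). The same was true of 12.8% of all tested genes in the higher direction and of 12.2% in the lower one. Golt1a was tested only because its exosome arrays were above background, so its place among the 7 is descriptive. The authors' deposited table, which is among the 5, gave the same calls for the 43 genes as quantile normalization.

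**Figure D1:**
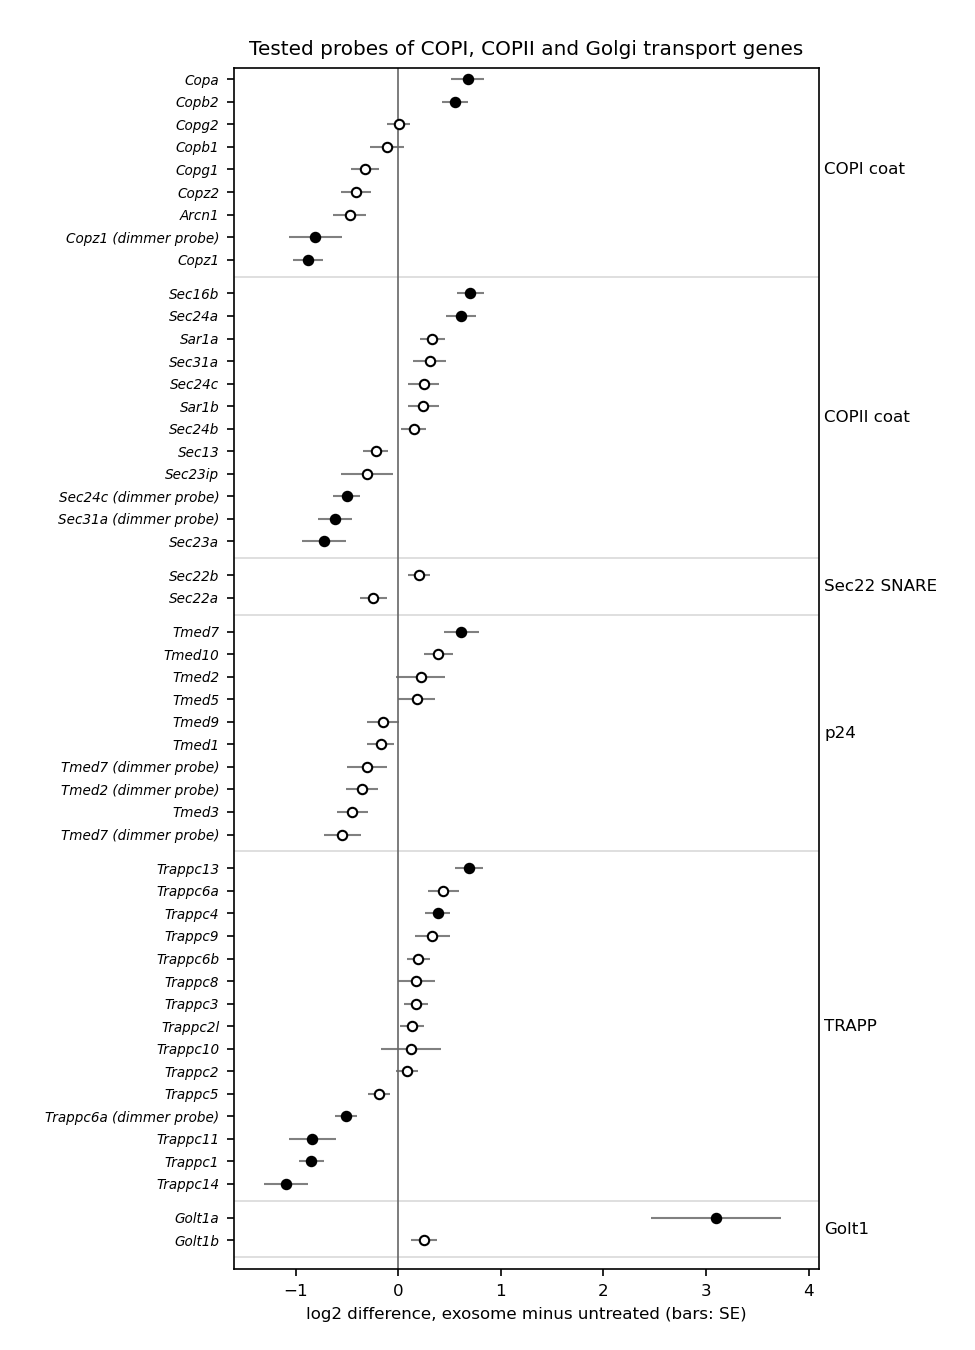
Log2 difference, exosome-treated minus untreated, of the 50 tested probes of the 43 genes by role, with bars of 1 SE (3 arrays in each group); filled points are past the threshold, and further probes of a gene are marked as dimmer. The probe of Golt1a is at 3.09, but it was above background on only 1 untreated array and its difference was 0.73 with normexp. The other probes lie between −1.09 and 0.70.

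The promoters of 40 of the 45 genes were found in RefSeq (assembly GRCr8), as windows of 300 bases from 250 before to 50 after the transcription start. Those of the 3 COPI genes past the threshold, Copa, Copb2 and Copz1, are shown because these genes differed in opposite directions within a single coat, and that of Golt1a is shown as one without the hexamer marked below. Capitals mark ACGTGG on either strand, so that CCACGT is the same hexamer read from the other strand. The windows lie at chr13:47312186-47312485 for Golt1a, chr13:87078618-87078917 for Copa, chr8:108040437-108040736 for Copb2 and chr7:136288007-136288306 for Copz1, all on the plus strand.
Golt1a: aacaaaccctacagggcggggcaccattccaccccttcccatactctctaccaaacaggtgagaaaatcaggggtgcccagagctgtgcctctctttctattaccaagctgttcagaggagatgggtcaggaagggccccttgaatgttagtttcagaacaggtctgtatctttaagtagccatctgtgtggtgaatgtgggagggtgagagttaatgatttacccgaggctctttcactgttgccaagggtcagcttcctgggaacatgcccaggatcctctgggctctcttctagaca
Copa: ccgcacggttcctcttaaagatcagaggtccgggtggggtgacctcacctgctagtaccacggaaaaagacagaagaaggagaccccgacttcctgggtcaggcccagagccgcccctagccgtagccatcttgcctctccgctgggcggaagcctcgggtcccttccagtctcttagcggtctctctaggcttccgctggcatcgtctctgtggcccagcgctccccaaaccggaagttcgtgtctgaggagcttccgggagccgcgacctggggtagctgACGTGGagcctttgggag
Copb2: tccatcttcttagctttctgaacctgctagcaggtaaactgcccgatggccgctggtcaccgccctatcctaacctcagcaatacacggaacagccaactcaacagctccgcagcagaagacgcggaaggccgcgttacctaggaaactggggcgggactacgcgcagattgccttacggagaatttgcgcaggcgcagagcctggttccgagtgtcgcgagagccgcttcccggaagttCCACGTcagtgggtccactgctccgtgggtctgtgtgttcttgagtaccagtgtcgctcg
Copz1: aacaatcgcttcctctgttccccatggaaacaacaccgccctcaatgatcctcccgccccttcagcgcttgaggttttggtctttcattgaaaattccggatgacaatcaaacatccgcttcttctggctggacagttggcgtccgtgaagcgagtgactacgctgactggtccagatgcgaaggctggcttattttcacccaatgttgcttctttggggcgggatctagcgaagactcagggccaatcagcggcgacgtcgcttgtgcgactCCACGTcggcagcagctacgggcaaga

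The hexamer ACGTGG occurred in 18 of the 40 promoters (45%), against 10.7% of the promoters of 9017 protein-coding genes tested on the arrays and 8.67% of 19005 protein-coding genes. It was present in 7 of 8 COPI promoters, in 5 of 8 p24 promoters and in 4 of 9 COPII promoters, and in 0 of 11 TRAPP promoters. Genes with the hexamer moved both ways: 3 of the 7 higher genes with a promoter held it (Copa, Copb2 and Tmed7), and so did 2 of the 5 lower genes (Copz1 and Sec23a). In Copa it lay 32 to 37 bases after the start, and in Copz1 23 to 28 bases after it. In Copb2 it ended 5 bases before the start. The Golt1a window held none. The hexamer was singled out from 8 patterns searched on both strands after the values were seen. The others were TGACGTG and CCACG, which overlap it, the motif CCAAT, the motif GGGCGG, the motif TGACGTCA, the motif CACGTG, and CCAAT followed by 9 bases and then CCACG. The last was in 0 of the 40 promoters, GGGCGG was in 67.5% against 57.1% of tested genes, and CCAAT was in 42.5% against 38.3%. CCACG was in 75% against 43.9%, TGACGTG in 10% against 2.22%, CACGTG in 5% against 8.81% and TGACGTCA in 0% against 2.92%. A match of letters is a description of the window and does not show a binding site.

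Of the 8 COPI genes, 2 were higher past the threshold and 1 was lower, against 14.6% and 29.2% of all tested genes. The genes of this coat past the threshold thus differed in opposite directions. Copa encodes the alpha subunit of the coat's outer layer. Its log2 signal was 3.48, 3.30 and 3.61 in exosome-treated cells, against 3.06, 2.70 and 2.59 in untreated cells. All exosome arrays lay above all untreated ones, and Copa rose by 0.68 ± 0.16. Copb2, the beta-prime subunit that pairs with Copa in that layer, rose by 0.55 ± 0.13, with a mean signal of 4.61 ± 0.16 in exosome-treated cells and 4.05 ± 0.06 in untreated cells (SD, n = 3 each).

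Copz1, the zeta subunit of the inner, adaptor-like layer, was the lowest COPI gene. The brighter of its 2 probes read 1.61, 1.92 and 1.50 in exosome-treated cells, against 2.54, 2.49 and 2.66 in untreated cells. The groups did not overlap, and the difference was −0.88 ± 0.15. Its dim second probe, above background on 2 of 3 exosome arrays, read −4.91, −5.88 and −5.07 in exosome-treated cells, against −4.55, −4.56 and −4.33 in untreated cells. It was lower past the threshold as well, with a difference of −0.81 ± 0.26. Copz1 was the one gene here for which more than 1 probe passed the threshold in the same direction, but this depended on the processing. The dim probe was not past the threshold after quantile normalization (−0.30), with median centring (−0.57) or with the authors' table (−0.30). With normexp the dim probe was past it (−0.34).

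The other 5 COPI genes were not past the threshold. Copz2, the second zeta subunit, differed by −0.41 ± 0.14, Arcn1, the delta subunit, by −0.47 ± 0.16 and Copg1, a gamma subunit, by −0.32 ± 0.13. In these 3 genes every exosome array was below every untreated array, and Arcn1 (−0.36) and Copz2 (−0.36) were past the threshold with normexp. After quantile normalization Copz2 was past it as well (−0.46), but Arcn1 was not (−0.24). Copb1, the beta subunit, differed by −0.11 ± 0.16 and Copg2, the other gamma subunit, by 0.00 ± 0.11, and their groups overlapped. The median of the 8 genes was −0.22, but 0.01 when arrays were centred on their median. Leaving out single arrays kept Copz1 past the threshold in all 6 fits, with a difference of −0.80 or further below 0. Copa lost the call without exosome 1 or 3 or untreated 2 or 3 (0.58 to 0.81 over the 6 fits), and Copb2 lost it without exosome 1 or untreated 2 or 3 (0.46 to 0.63).

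**Figure D2:**
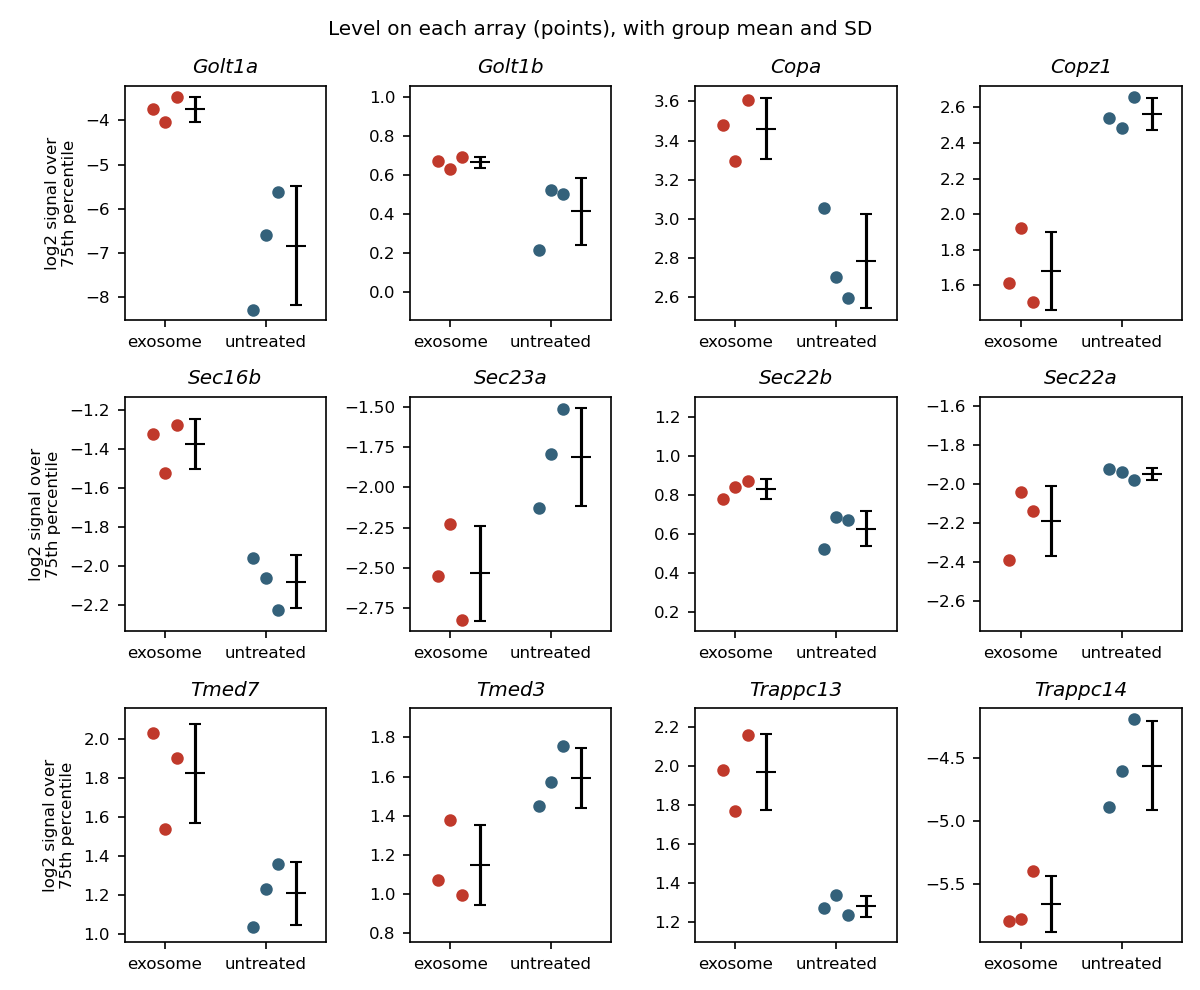
Log2 signal relative to the array's 75th percentile on each array for the Golt1 genes and the highest and lowest gene of each other role, with exosome-treated cells left of untreated cells, replicates in order within a group, and the group's mean with 1 SD beside its points (n = 3 each). The groups overlap in none of these genes. The vertical axes differ between panels, from 3.09 between group means in Golt1a to 0.20 in Sec22b.

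In the COPII machinery 2 of 10 tested genes were higher past the threshold and 1 was lower, against 14.6% and 29.2% of all tested genes. Sec16b, a scaffold of ER exit sites, read −1.33, −1.52 and −1.28 in exosome-treated cells, against −1.96, −2.06 and −2.22 in untreated cells. The difference was 0.70 ± 0.13 without overlap of the groups. Sec24a, one of the cargo-binding subunits, rose by 0.61 ± 0.15, with means of −3.51 ± 0.18 in exosome-treated cells and −4.13 ± 0.16 in untreated cells (SD, n = 3 each). It is a dim probe, and its difference was 0.18, no longer past the threshold, with the normexp background correction.

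Sec23a, the partner of Sec24 that stimulates the GTPase activity of Sar1, was the lowest COPII gene. Its signal was −2.55, −2.23 and −2.82 in exosome-treated cells, against −2.13, −1.79 and −1.52 in untreated cells. Exosome 2 lay just below untreated 1, and the difference was −0.72 ± 0.22. It became −0.49 and was not past the threshold after quantile normalization or median centring. The 2 genes of the inner coat layer past the threshold, Sec24a and Sec23a, thus differed in opposite directions.

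The 7 other COPII genes were not past the threshold. The GTPase Sar1a differed by 0.33 ± 0.12, with exosome arrays all above untreated ones, and was past the threshold after quantile normalization (0.37) and median centring (0.57). Its paralog Sar1b differed by 0.24 ± 0.15. Sec24b and Sec24c, 2 further cargo-binding subunits, differed by 0.15 ± 0.12 and 0.25 ± 0.15. The outer cage proteins Sec13 and Sec31a differed by −0.22 ± 0.12 and 0.31 ± 0.16. Sec23ip, a partner of Sec23 at exit sites, differed by −0.30 ± 0.25, with an SD of 0.51 among exosome arrays and 0.08 among untreated ones. Sec16b lost its call without untreated 2 or 3 (0.63 to 0.78 over the 6 fits that leave out an array). Sec24a (0.54 to 0.71) and Sec23a (−0.88 to −0.57) lost theirs without exosome 1 or 3 or untreated 2 or 3.

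Of the 7 tested p24 genes, 1 was higher past the threshold in limma and 0 were lower, against 14.6% and 29.2% of all tested genes. At an unadjusted p below 0.05 the counts were 2 and 1. No share of all genes is given at that level, so nothing is read from these counts. Tmed7, the highest, read 2.03, 1.54 and 1.90 on its brightest probe in exosome-treated cells, against 1.04, 1.23 and 1.36 in untreated cells. The groups did not overlap and the difference was 0.61 ± 0.17. Its other 2 probes differed the other way, by −0.55 ± 0.18 and −0.30 ± 0.20, neither past the threshold, and the mean of the 3 probes differed by −0.08. The direction for Tmed7 is therefore that of its brightest probe.

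Tmed3, the lowest p24 gene, read 1.07, 1.38 and 0.99 in exosome-treated cells, against 1.45, 1.57 and 1.76 in untreated cells. Its groups did not overlap, but the difference of −0.45 ± 0.15 was not past the threshold, which it passed with normexp (−0.39). Tmed10, which forms heteromers with Tmed2 and is needed by other p24 proteins, differed by 0.39 ± 0.14 without overlap of the groups, and was past the threshold after quantile normalization (0.41), median centring (0.62) and normexp (0.42). Tmed2 differed by 0.22 ± 0.24, Tmed5 by 0.18 ± 0.18, Tmed9 by −0.15 ± 0.15 and Tmed1 by −0.17 ± 0.13, and the groups of these 4 genes overlapped. Tmed7 kept its call only when exosome 2 was the array left out, with differences between 0.51 and 0.76 over the 6 fits.

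Of the 14 TRAPP genes, 2 were higher past the threshold and 3 were lower, against 14.6% and 29.2% of all tested genes. Trappc14, a subunit of the metazoan TRAPPII complex, read −5.79, −5.77 and −5.40 in exosome-treated cells, against −4.89, −4.61 and −4.19 in untreated cells. Every exosome array was below every untreated one, with a difference of −1.09 ± 0.21. This is a dim probe, and the difference was −0.59 after quantile normalization and −0.41 with normexp, past the threshold in both. Trappc1, a subunit of the core shared by the TRAPP complexes, had means of 0.36 ± 0.02 in exosome-treated cells and 1.20 ± 0.14 in untreated cells (SD, n = 3 each), a difference of −0.85 ± 0.12. Trappc11, a subunit of TRAPPIII, fell by 0.84 ± 0.23 on the same log2 scale, and its difference was −0.60, not past the threshold, after quantile normalization.

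Trappc13, another TRAPPIII subunit, was the highest TRAPP gene, at 1.98, 1.77 and 2.16 in exosome-treated cells, against 1.27, 1.34 and 1.24 in untreated cells. The groups did not overlap, and the difference was 0.69 ± 0.14. Each of these values is the mean of 10 spots of the probe, whose SD within an array was 0.07 to 0.13. Trappc4, a core subunit, rose by 0.39 ± 0.12. The 2 TRAPPIII subunits past the threshold, Trappc13 and Trappc11, and the 2 core subunits, Trappc4 and Trappc1, each differed in opposite directions.

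The remaining 9 TRAPP genes were not past the threshold with the 75th percentile scaling. Among core subunits, Trappc6a differed by 0.44 ± 0.15, Trappc6b by 0.19 ± 0.11, Trappc3 by 0.17 ± 0.12 and Trappc5 by −0.19 ± 0.11, all without overlap of the groups. Trappc2 differed by 0.09 ± 0.11 and its paralog Trappc2l by 0.13 ± 0.12. The TRAPPII subunits Trappc9 and Trappc10 differed by 0.33 ± 0.17 and 0.12 ± 0.29, and the TRAPPIII subunit Trappc8 by 0.18 ± 0.18. Some of these depended on the scaling. After quantile normalization Trappc8 was at 0.66, Trappc2 at 0.43 and Trappc6a at 0.41, all past the threshold. Trappc6a also passed it with median centring (0.67) and normexp (0.48), Trappc3 (0.41) and Trappc6b (0.43) with median centring, and Trappc9 (0.35) with normexp. When single arrays were left out, Trappc1 kept its call in all 6 fits (−0.92 to −0.78), and Trappc14 lost it only without untreated 2 (−1.11). Trappc13 lost it without untreated 2 or 3 (0.59 to 0.79 over the fits), Trappc11 without exosome 1 or 3 or untreated 2 or 3 (−1.04 to −0.68), and Trappc4 in every fit but the one without exosome 2 (0.31 to 0.46).

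Golt1a and Golt1b are the mammalian relatives of yeast Got1, a membrane protein of ER-to-Golgi transport. Golt1a read −3.73, −4.04 and −3.47 in exosome-treated cells, against −8.30, −6.61 and −5.62 in untreated cells. The exosome arrays lay close together and above all untreated arrays, which spread with an SD of 1.36 against 0.29. The probe was well above background on 3 exosome arrays but on only 1 untreated array. In processed intensity it read 75.7, 64.3 and 77.6 in exosome-treated cells, against 2.77, 7.96 and 15.4 in untreated cells. The fitted difference of 3.09 ± 0.63 therefore rests on untreated signals that were mostly at background. Because the probe met the requirement of 3 arrays through the exosome group, its calls are description only. With the normexp correction, which adds an offset of 50 to the signal, the difference was 0.73 and past the threshold. Without untreated 2 it was 3.21 and not past it, and over the 6 fits that leave out an array it ran from 2.37 to 3.71.

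Golt1b, by contrast, was above background on all 6 arrays. It read 0.67, 0.63 and 0.69 in exosome-treated cells, against 0.22, 0.52 and 0.50 in untreated cells. Its groups did not overlap, but the difference of 0.25 ± 0.13 was not past the threshold, which it passed with median centring (0.48).

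Neither Sec22 gene was past the threshold in limma with the 75th percentile scaling, where 43.8% of all tested genes were. There 0 of the 2 had an unadjusted p below 0.05. No share of all genes is given at that level, so nothing is read from this count. Sec22b, a SNARE of ER-to-Golgi vesicles, read 0.78, 0.84 and 0.87 in exosome-treated cells, against 0.52, 0.69 and 0.67 in untreated cells, a difference of 0.20 ± 0.11. Its relative Sec22a read −2.39, −2.04 and −2.14 in exosome-treated cells, against −1.92, −1.94 and −1.98 in untreated cells, a difference of −0.24 ± 0.13. The groups of both genes were apart, in opposite directions. Sec22a differed by −0.01 after quantile normalization and by −0.26, past the threshold, with normexp. Sec22b was past it with median centring, at 0.43.

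The groups did not overlap in 27 of the 43 genes, 15 with exosome arrays above and 12 with exosome arrays below. The share in all tested genes was about the same, 62.0%, with 24.1% above and 37.9% below. Counted by probe, 32 of the 50 were without overlap, against 59.0% of all tested probes.

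Probes of the same gene often gave different answers. Of the 6 genes with 2 or more tested probes, 5 (Sec24c, Sec31a, Tmed2, Tmed7 and Trappc6a) had a positive difference on the brightest probe and a negative one on the dimmest. Copz1 was negative on both. In Trappc6a the brightest probe differed by 0.44 and was not past the threshold, while the dimmer one differed by −0.51 ± 0.11 and was. In Sec31a the values were 0.31 and −0.62 ± 0.17, and in Sec24c 0.25 and −0.50 ± 0.13, again with the dim probe past the threshold. These calls depended on the scaling. After quantile normalization the dim probe was at −0.25 in Sec31a and −0.05 in Sec24c, neither past the threshold, and at −0.47 in Trappc6a, past it. With median centring none of them was past it, and with normexp all were. Counted by probe, 17 of 50 were past the threshold, against 42.4% of 20435 tested probes. Of the 50, 8 were higher and 9 lower, where all tested probes had 11.4% higher and 31.0% lower. Of 1605 genes on the array with 2 or more tested probes, the brightest gave the more positive difference in 73.0% and the signs were opposite in 49.5%.

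**Figure D3:**
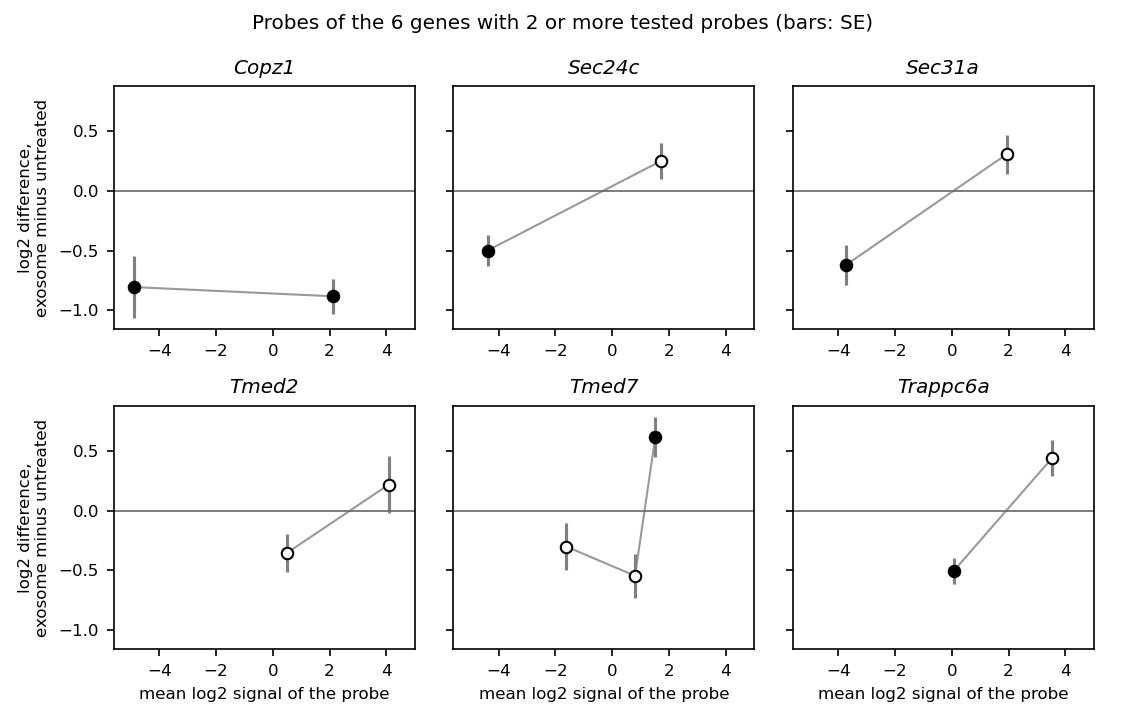
Log2 difference, exosome-treated minus untreated, of every tested probe of the 6 genes with 2 or more tested probes, against the probe's mean log2 signal over 6 arrays, with bars of 1 SE; filled points are past the threshold and lines join the probes of a gene. The brightest probe is above 0 and the dimmest below 0 in Sec24c, Sec31a, Tmed2, Tmed7 and Trappc6a, and Copz1 is negative on both, at −0.88 and −0.81.

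The difference moved with signal over the whole array. In 4 bins of tested genes of equal size by mean signal, the median difference of all genes was −0.59, −0.36, −0.06 and 0.15 from the dimmest to the brightest, and −0.10, −0.06, 0.02 and 0.13 after quantile normalization. The 43 genes were mostly bright: 3, 11, 7 and 22 of them fell in these bins, with medians of 0.18, 0.00, 0.19 and 0.23. Golt1a and Trappc14, with the highest and lowest fitted values, both lay in the dimmest bin, and both values were closer to 0 with normexp (0.73 and −0.41). Across genes the Spearman correlation of difference with signal was 0.41 for all 10981 genes and 0.25 for the 43, and Pearson's r was 0.39 and −0.02. Here genes are not independent and each gene's points share the same 6 arrays. The part of signal in the direction of single genes was not tested.

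**Figure D4:**
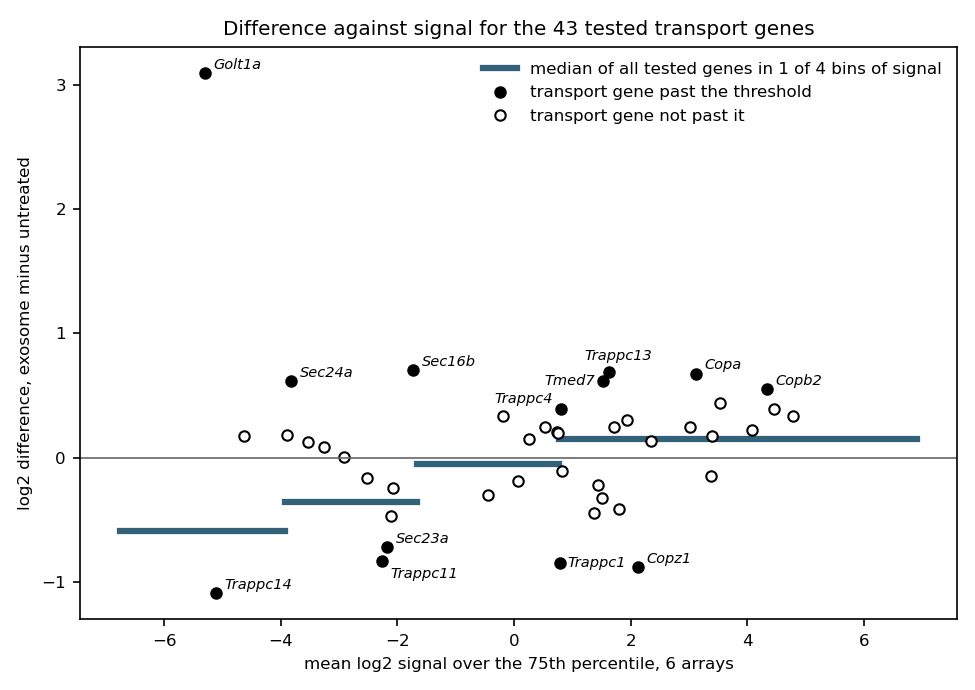
Log2 difference, exosome-treated minus untreated, of the 43 tested genes against their mean log2 signal over 6 arrays; blue lines are the medians of all tested genes in each of 4 bins of signal. The medians climb from −0.59 to 0.15, and Golt1a (3.09) and Trappc14 (−1.09) both lie in the dimmest bin.

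Other genes of the route from ER to Golgi were listed by role, 95 in all, of which 77 were tested. Of these, 20 were higher past the threshold and 18 lower (49.4% in all), against 14.6% higher and 29.2% lower (43.8% in all) of all tested genes. Their median difference was 0.08, against −0.19 for all genes. Median centring gave 31 higher and 11 lower, and 2756 higher and 1856 lower among all genes. The ER translocon and its partners had 6 higher and 3 lower of 15: Ssr1, a subunit of the translocon-associated complex, rose by 0.73 ± 0.14, and Sec61a1, the channel itself, fell by 0.70 ± 0.12. The probe of Sec61a1 is dim, and its difference was −0.39, past the threshold, after quantile normalization. Among COPI regulators 4 of 10 were higher and 1 was lower. Arf4, a GTPase that recruits coats, fell by 1.01 ± 0.26. Arfgap1, which ends the GTPase cycle on COPI vesicles, rose by 0.47 ± 0.12 on its brighter probe, while the mean of its 2 probes differed by −0.09.

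Among COPII regulators 1 of 6 was higher and 2 were lower, against 14.6% and 29.2% of all tested genes. Creb3l2, a transcription factor known from mouse cartilage to activate Sec23a, fell, with means of 0.58 ± 0.07 in exosome-treated cells and 1.68 ± 0.10 in untreated cells (SD, n = 3 each). Rab1a, the GTPase that TRAPP activates, rose by 0.75 ± 0.14. Cargo receptors and retrieval genes had 4 higher and 2 lower of 13. Kdelr1, a receptor that returns ER-resident proteins in COPI vesicles, fell by 1.13 ± 0.19, while Bcap31, an ER export and quality-control protein, rose by 0.68 ± 0.13. Of 18 tethers and golgins 3 were higher and 2 lower, with Golgb1, the golgin giantin, at 0.71 ± 0.11 and Cog1, a subunit of the COG tether, at −0.74 ± 0.13.

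SNAREs and their factors had 2 higher and 8 lower of 15, with a median of −0.46, against 14.6% higher and 29.2% lower of all tested genes. Gosr2, a Golgi SNARE, fell by 1.22 ± 0.21 and Napa, which helps to take SNARE complexes apart, fell by 1.05 ± 0.20. After quantile normalization 2 were higher and 5 lower, with a median of −0.27, and median centring gave 3 higher and 4 lower, with a median of −0.23. Several of the lower genes were dim, such as Nsf, with means of −4.81 in exosome-treated cells and −4.27 in untreated cells. Nsf differed by −0.54, and by −0.07, not past the threshold, after quantile normalization. Use1, a brighter gene, differed by −0.46, and by −0.51 after quantile normalization, past the threshold in both. Whether this group differs from other genes, or from genes of like signal, was not tested.

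The arrays differed in ways that bear on all these values. The share of gene spots well above background was 67.2% to 72.2% on exosome arrays and 72.6% to 75.6% on untreated arrays. Exosome 2 was the exosome array closest to the untreated ones (r of 0.977 to 0.983 with them), and in 12 of the 13 genes past the threshold it had the exosome value nearest the untreated mean, as it did in 77.2% of all genes past it. The 3 untreated arrays were scanned on one occasion and the exosome arrays on 2 others, so scan run and treatment cannot be told apart. With the run as a random block, 7 genes were higher and 4 lower, at 35.5% of all genes past the threshold, and Trappc4 and Sec23a lost their calls. Without untreated 2, limma put 0 genes past the threshold as higher and 2 as lower, at 8.69% of all genes past it. At an unadjusted p below 0.05 there were then 7 higher and 6 lower. With no share of all genes given at that level, nothing is read from these counts. Without untreated 3, 1 was higher and 3 were lower, at 11% of all genes. Without exosome 2, 12 were higher and 8 lower, at 45.7% of all genes.

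Markers of Leydig cells were strong, with 6 of 8 above background on some array, but Lhcgr and Nr5a1 were below it on all. Of the list, Star, Cyp11a1, Hsd3b1 and Insl3 counted as measured. Their summed signal, in multiples of the 75th percentile, was 74.4 to 88.1 in exosome-treated cells and 75.6 to 84.8 in untreated cells. Such sums are set by the brightest probes. Of the 5 tested Leydig markers 4 had a negative difference, with a median of −0.29, and Cyp11a1, the enzyme that starts steroid synthesis, was lower past the threshold at −0.86. All 5 peritubular myoid markers were measured, and their sum was lower, at 22.4 to 29.1 in exosome-treated cells and 35.9 to 39.8 in untreated cells. All 5 had a negative difference, and Des and Tagln were lower past the threshold. All 6 macrophage markers were measured, with sums of 3.07 to 13.9 in exosome-treated cells and 13.5 to 15.1 in untreated cells. Of these, 5 had a negative difference, the lowest −2.34, and Adgre1 and Cx3cr1 were lower past the threshold. After quantile normalization 1 of the 6 was lower past it. Of 4 Sertoli markers with a probe, 3 were above background on some array and Amh was below it. Those measured, Wt1 and Inhbb, summed to 4.57 to 5.19 in exosome-treated cells and 3.36 to 4.26 in untreated cells. Wt1 was higher past the threshold, and all 3 tested Sertoli markers had a positive difference. Endothelial markers (3 of 4, Tek below background) summed to 1.07 to 1.42 in exosome-treated cells and 0.61 to 0.81 in untreated cells, with Kdr and Pecam1 higher and Cdh5 lower (−0.45) past the threshold. Germ cell markers (2 of 4) summed to 0.107 to 0.115 in exosome-treated cells and 0.125 to 0.133 in untreated cells. Lymphocyte markers (3 of 4) summed to 0.243 to 0.275 in exosome-treated cells and 0.290 to 0.319 in untreated cells, although 2 of the 3 tested had a positive difference. Prm2 and Cd3d were lower past the threshold, but neither was after quantile normalization. Among all tested genes 14.6% were higher and 29.2% lower. In bulk RNA, fewer cells of a type and less RNA per cell cannot be told apart, and the part of other cell types in the differences of the transport genes was not tested.

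**Figure D5:**
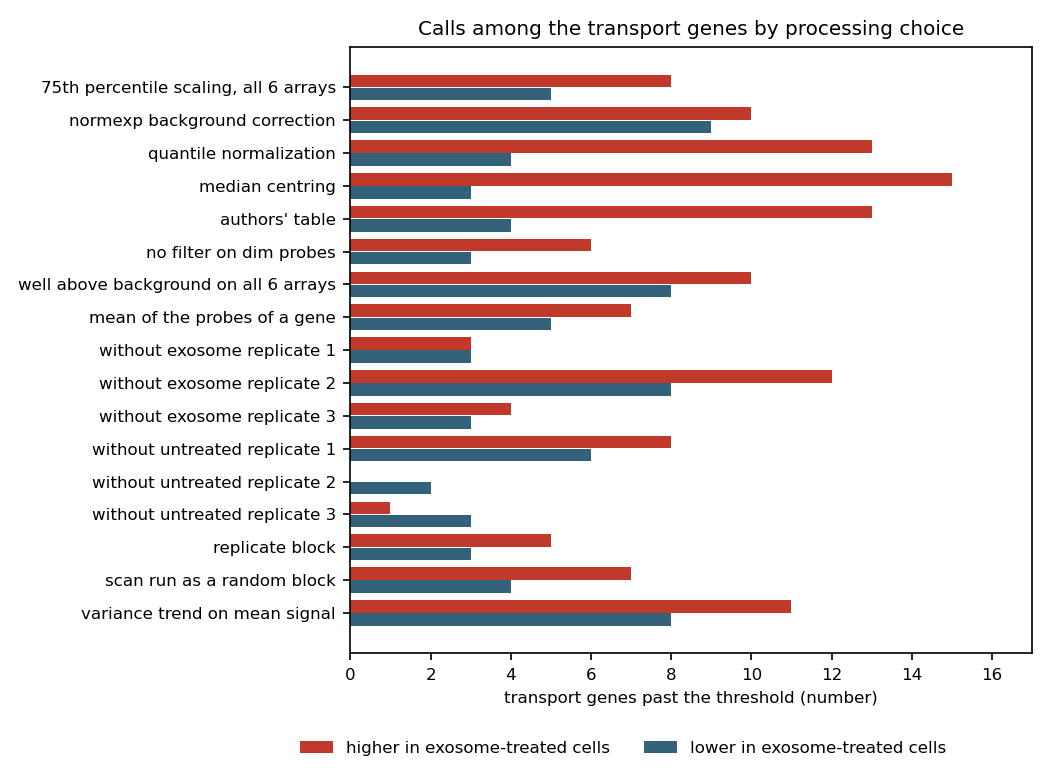
Number of the tested transport genes past the threshold, higher (red) or lower (blue) in exosome-treated cells, under each processing choice. The counts run from 0 higher and 2 lower without untreated replicate 2 to 15 higher with median centring and 9 lower with normexp. Of all tested genes, 8.69%, 42% and 53.2% were past the threshold in these 3 settings.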

How the data were processed

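Per the file headers, the deposited arrays hold fluorescence intensities read with Agilent Feature Extraction 11.0.1.1. The processed intensity was used, which is background-corrected and not scaled between arrays. The table that the authors deposited holds log2 values whose columns share a median of 5.68. It correlated with each array at r of 0.996 or above and served as an alternative. How it was scaled is not given in the sources used here. Among the 43 genes it gave the same 13 higher and 4 lower calls as quantile normalization, so these alternatives do not count separately.

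Outlier spots, 388 to 572 per array, were left out and the spots of a probe averaged. The array's 75th percentile was subtracted. limma 3.58.1 in R 4.3.3 was fitted on 20435 probes (prior degrees of freedom 2.60), with p-values adjusted over all of them. The fit was also run on simulated data with independent noise for each probe. That run held no scan run and no shift with signal, so it does not bear on either. Python 3.11.15, pandas 2.3.3, numpy 2.4.6 and matplotlib 3.10.9 did the rest. Accessions were named through RefSeq genes (GRCr8). Precision is limited by the number of arrays.

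The genes and lists were chosen with earlier results of these data known. Values on each array are given for the Golt1 genes, the highest and lowest gene of each role and genes with 2 probes past the threshold. Of the other transport genes, the 2 of smallest p in each role are named. Alternatives changed the scaling, background, filter, probe rule, variance prior, blocks and arrays. The files hold no mean intensity, so normexp used the median intensity and median background. No slide was identified, so the scan run, read from scan times, took its place as a block.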

Additional observations from a re-analysis of the deposited data

How the results depend on the processing

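Among the 43 transport genes, the 8 higher calls became 13 with quantile normalization, 15 with median centring, 13 with the authors' table and 5 with the replicate block. The 5 lower calls became 9 with normexp, 3 with median centring, 3 with no filter on dim probes, 8 with the filter for all 6 arrays, 8 with a variance trend and 3 with the replicate block. Leaving out single arrays gave 0 to 12 higher and 2 to 8 lower. Among the 77 other transport genes, the 20 higher calls became 31 with median centring, 9 with no filter, 8 with the replicate block and 12 with the scan run as a random block, and 2 to 19 without an array. Their 18 lower calls became 11 with median centring, 12 with no filter, 11 with the replicate block, and 7 to 21 without an array. The scan run as a random block put 35.5% of all tested genes past the threshold. The labels do not say whether replicate numbers pair the samples. Deviations from the group means correlated at −0.09, −0.03 and −0.02 for same-numbered arrays and at −0.06 to 0.10 for the others. With so few arrays, these values cannot settle the pairing.

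Of the named genes past the threshold, none changed sign under these alternatives except on the mean of its probes, where Tmed7 (−0.0777) and Arfgap1 (−0.0896) did. Genes not past it changed sign on that mean in Sec24c (−0.126), Sec31a (−0.156), Trappc6a (−0.0329) and Tmed2 (−0.0684). So did Copb1 (0.121), Sec13 (0.0120), Trappc5 (0.0457), Tmed1 (0.0628) and Tmed9 (0.0842) with median centring, Tmed1 with quantile normalization (0.112) and the authors' table (0.114), and Trappc2 (−0.00892) and Trappc8 (−0.0459) with normexp. Leaving out single arrays moved Copg2 between −0.0424 and 0.0401, Trappc10 between −0.0715 and 0.406 and Tmed5 between −0.0110 and 0.291. Golt1a could not be given under the filter for all 6 arrays. The causes were not tested.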
